A study of Drosophila melanogaster with 12 samples.

Results

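The genes described here carry a FlyBase symbol that starts with Jon, Mal-A, Mal-B, Amy or Lip, or that ends in Try, the names given to digestive proteases, maltases, amylases and lipases of Drosophila melanogaster. The rule found 23 genes among the 10893 with deposited values. Of these, 19 encode digestive enzymes: 7 Jonah proteases, 5 trypsins, 6 maltases and the lipase Lip4. The other 4 were caught by their letters alone and encode no digestive enzyme: the scaffold proteins Liprin-alpha, Liprin-beta and Liprin-gamma, and the lipoyl transferase Lipt2. The annotation holds 49 symbols that match the rule, and the 26 others, among them the 3 amylases Amy-p, Amy-d and Amyrel, were not analysed here. No amylase was therefore measured, although amylases belong to the gene group by name.

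Messenger RNA was sequenced in 12 libraries, 1 for each of 12 groups, from the strain w[11-18] reared at 25°C on yeast-glucose medium and dissected alive. Of the 9 eye-antennal disc libraries, 5 came from whole discs: discs at 72, 96 and 120 h after egg laying, discs at the white prepupal stage (WPP, the newly formed puparium), and discs at 72 h with the mouthparts still attached. The other 4 came from separated eye parts and antenna parts at 96 and at 120 h. The 3 remaining libraries were whole larvae at 72, 96 and 120 h, each age being given to within 1 h. How many animals went into a library is not stated. With 1 library per group, the p-values below rest on how far a difference varied between ages or tissues, technical spread included. They do not measure a spread between replicates. In the fit of 96 and 120 h discs, the whole disc contains both parts and is no independent tissue.

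Larval flies feed almost without pause, and the midgut secretes enzymes into its lumen, where food is broken down behind the peritrophic matrix, a chitin and protein lining. Jonah genes encode serine proteases of the chymotrypsin type and trypsins cut proteins after lysine or arginine. Maltases are alpha-glucosidases that release glucose from maltose and short starch fragments, and lipases free fatty acids from dietary fat. Feeding stops when the larva leaves the food to form its puparium, and the larval midgut is later replaced. The eye-antennal disc, an epithelial sac attached to the mouthparts that forms the adult eye, antenna and head capsule, has no digestive role.

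Values are FPKM, which count sequenced fragments relative to the length of the transcript and the size of the library, and differences are given in log2(FPKM + 1). In the larvae the labelled tissue held gut RNA: the junction gene Ssk had 139, 97.0 and 108 FPKM at 72, 96 and 120 h, and the midgut gene mex1 had 88.5, 112 and 52.8 FPKM. In whole discs all 9 eye-antennal disc markers were higher than in larvae of the same ages. A library summed to between 939303 and 2210255 FPKM, and its number of reads is unknown. In bulk samples, fewer cells of a type and less RNA per cell cannot be told apart. Jonah proteases and trypsins lie in arrays of related genes, so their values are uncertain where reads could be shared between near-identical copies. Sequence identity between the copies was not measured here.

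Some of the Jonah proteases ranked among the most abundant messages of the whole larva. Together the 19 enzyme genes took 0.821%, 2.46% and 1.57% of the summed FPKM of larvae at 72, 96 and 120 h. Among the 100 highest genes of each larval library were 2, 5 and 4 of them, all Jonah proteases. The Jonah proteases made up most of this, with summed levels of 15682, 41235 and 20401 FPKM, against 1625, 2488 and 2567 FPKM for the trypsins and 828, 562 and 414 FPKM for the maltases. The order Jonah, trypsin, maltase was thus the same at all 3 ages. The age at which a gene was highest is given below for the values as deposited; after rescaling without genes of transcripts under 200 nt, Jon65Aiii, Jon66Ci, Jon74E and epsilonTry were highest at 120 h in place of 96 h, and Mal-A8 and thetaTry at 72 h.

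Jon65Aiv was the highest enzyme gene at every age, with 5987, 17252 and 8718 FPKM in larvae at 72, 96 and 120 h. It was the 27th, 12th and 16th most abundant gene of these libraries. Its neighbour Jon65Aiii had 2238, 6364 and 4688 FPKM. Both genes lie on chromosome arm 3L, in the same orientation and separated in the annotation only by a transposon, and both were highest at 96 h. The ratio of Jon65Aiv to Jon65Aiii ranged from 1.86 to 2.71 in the larvae.

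The 3 Jonah genes on chromosome arm 2L, which also stand side by side apart from a transposon, were likewise highest at 96 h and came down further by 120 h. Jon25Biii had 4046, 9728 and 2172 FPKM at 72, 96 and 120 h. Jon25Bii had 1281, 2665 and 1241 FPKM. Jon25Bi had 1376, 2131 and 664 FPKM. All 3 were lower at 120 h than at 72 h in these single libraries, whereas Jon65Aiii and Jon65Aiv were higher.

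Jon66Ci and Jon74E, on arm 3L, kept most of their 96 h level to the end of larval life. Jon66Ci had 486, 2488 and 2367 FPKM at 72, 96 and 120 h. Jon74E had 267, 607 and 550 FPKM. The share of the Jonah sum taken by Jon25Biii was 25.8%, 23.6% and 10.6% at the 3 ages, while that of Jon65Aiv was 38.2%, 41.8% and 42.7%.

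The 5 trypsins measured lie in one array on chromosome arm 2R and did not share a course. epsilonTry was the highest of them, with 1126, 1981 and 1432 FPKM at 72, 96 and 120 h. thetaTry had 194, 245 and 132 FPKM. These 2 genes followed the Jonah proteases in being highest at 96 h. alphaTry, the gene next to both in the array, had 110, 134 and 972 FPKM, and so was highest at 120 h. kappaTry ran the other way, with 122, 68.9 and 4.51 FPKM, and betaTry with 72.8, 57.7 and 26.9 FPKM. The ratio of alphaTry to betaTry accordingly ranged from 1.51 to 36.1 across the larvae.

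Among the maltases, the members of the Mal-A array on arm 2R also divided. Mal-A3 had 306, 83.7 and 4.47 FPKM at 72, 96 and 120 h. Mal-A6 had 231, 160 and 80.9 FPKM. Mal-A1 had 199, 127 and 43.6 FPKM. These 3 genes were highest at 72 h. Mal-A5 is the immediate neighbour of Mal-A6 on the same strand, yet it had 23.1, 107 and 220 FPKM, so that the ratio of Mal-A5 to Mal-A6 ranged from 0.1 to 2.73. Mal-A8 had 69.4, 82.7 and 40.4 FPKM.

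The remaining enzymes were low. Mal-B2, on arm 2L, was near 0 (under 0.001 FPKM) at 72 h and had 0.00274 FPKM at 96 h and 24.4 FPKM at 120 h. Lip4, annotated as a lipase, had 6.18, 14.6 and 30.4 FPKM. Both were thus highest at 120 h. The spans of Mal-A1, Mal-A8 and Mal-B2 overlap the genes Cyp4e1, mtt and Pde1c on the opposite strand, and since the strand setting of the counting is not given in the sources used here, reads of the overlapping genes cannot be told apart.

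**Figure D1:**
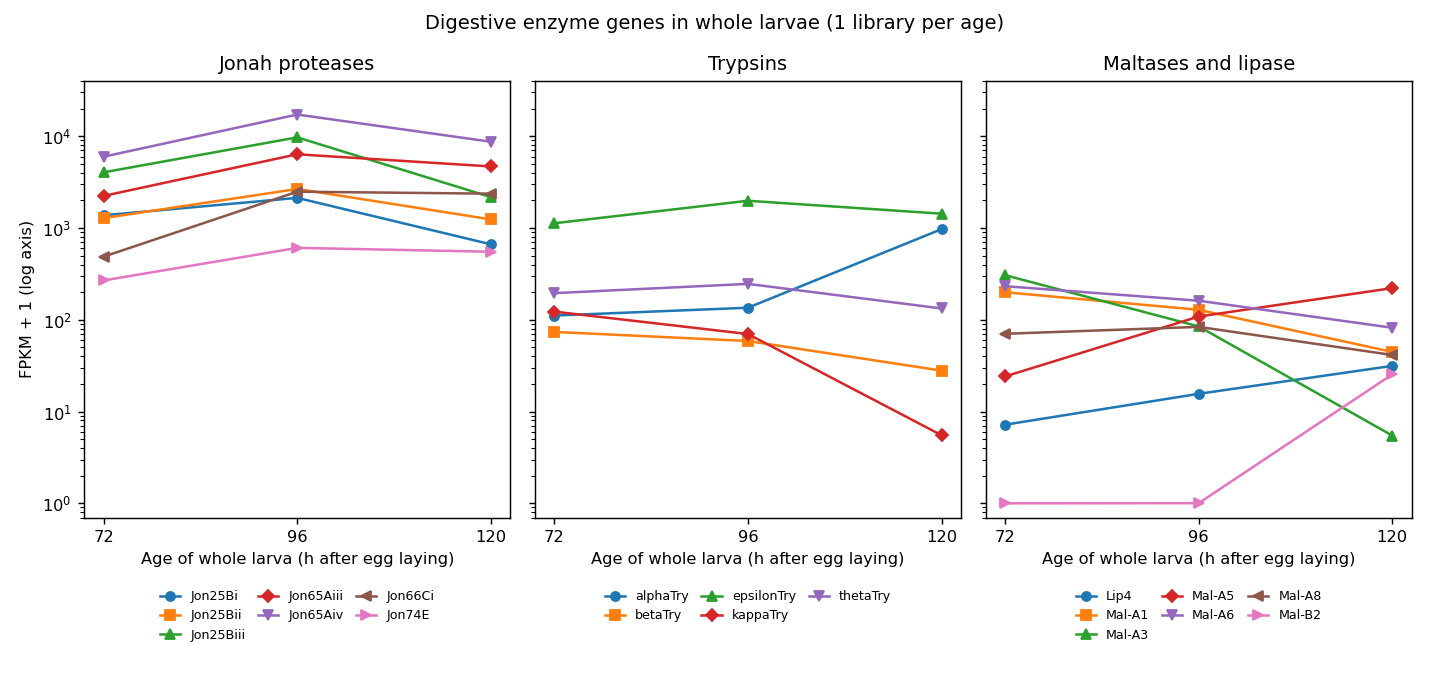
FPKM + 1 on a log axis against the age of the whole larva in h after egg laying, 1 line per digestive enzyme gene and 1 library per age, in panels for the 7 Jonah proteases, the 5 trypsins, and the 6 maltases with Lip4. All 7 Jonah lines peak at 96 h in these values as deposited (4 of 7 after rescaling without short transcripts), alphaTry climbs to 972 FPKM at 120 h while kappaTry drops to 4.51 FPKM, and Mal-A5 crosses the other Mal-A lines.

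Larvae at 96 h were set against larvae at 72 h, and larvae at 120 h against larvae at 96 h, to follow the enzyme genes through the feeding stage and towards its end. With 1 library per age there is no replicate check, and a gene is called higher or lower where it differed by at least 1 in log2(FPKM + 1) and the higher of the libraries held at least 5 FPKM. From 72 to 96 h, 8 of the 19 enzymes were higher and 1 was lower, beside 9.8% higher and 17.3% lower of the 7415 genes that reached the floor. The 8 were 6 of the 7 Jonah proteases, Mal-A5 and Lip4. The differences ran from 1.06 for Jon25Bii through 1.27 for Jon25Biii, 1.51 for Jon65Aiii and 1.53 for Jon65Aiv to 2.35 for Jon66Ci. Mal-A5 differed by 2.17. The gene that was lower was Mal-A3, at −1.86. The enzymes had a median difference of 0.63, and all genes that reached the floor one of −0.14.

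From 96 to 120 h, 4 enzymes were higher and 8 were lower, beside 25.1% higher and 8.24% lower of 8171 genes. The 4 were alphaTry, at 2.85, Mal-A5, at 1.03, Lip4, at 1.01, and Mal-B2, which stood near 0 before. The 8 were the 3 Jonah proteases of arm 2L, with Jon25Biii at −2.16 and Jon25Bi at −1.68, the maltases Mal-A1, Mal-A3 and Mal-A8, and the trypsins betaTry and kappaTry. Mal-A3 differed by −3.95 and kappaTry by −3.66. Jon65Aiv and Mal-A6, both at −0.98, came just short of the rule. The median over the enzymes was −0.98, while that over all genes was 0.61.

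In all, 10 of the 19 enzymes had their highest larval value at 96 h, 5 at 72 h and 4 at 120 h. Of the 8494 genes with at least 5 FPKM in a larva, 8.48% were highest at 96 h. The 10 included all 7 Jonah proteases; after the rescaling the number was 4, all of them Jonah proteases. The larval differences depend on how libraries are put on one scale. All 7 Jonah proteases stood above 0 from 72 to 96 h as deposited, after median-ratio scaling and after rescaling without genes of transcripts under 200 nt, but under this last scaling only Jon66Ci stayed past the rule. From 96 to 120 h all 7 stood below 0 as deposited and after median-ratio scaling, and 4 of 7 after the rescaling, where Jon65Aiii, Jon66Ci and Jon74E stood above 0. Median-ratio scaling put the median of all genes at 0.05 and 0.07 for the 2 intervals, and the rescaling put it at −0.68 and 1.09. Against the all-gene median of the deposited values, the difference was −1.60 for Jon65Aiv and −0.69 for Jon66Ci at 120 h.

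Other genes of the digestive tract gave a frame for this course. yip7, a serine protease close to the Jonah group, had 713, 2612 and 2601 FPKM at 72, 96 and 120 h, and mag, which encodes the gut lipase Magro, had 1128, 1934 and 1575 FPKM. Of 11 further digestive enzymes measured, 4 were higher at 96 h than at 72 h (yip7 and the lysosomal proteases cathD, CtsB and CtsL1) and 2 were lower (Try29F and LManI). At 120 h cathD was higher than at 96 h and the alpha-glucosidase tobi lower. Peritrophin-15a, a protein of the peritrophic matrix, had 2819, 8893 and 2507 FPKM. With Peritrophin-15b it was higher at 96 h and lower at 120 h, and Muc55B was lower in both intervals, among 4 genes of that list. Of 8 lysozymes and gut amidases, LysX and PGRP-SC2 were higher and LysE lower at 96 h, and LysE and LysX were higher and LysB and LysC lower at 120 h. None of the 4 midgut transcription factors measured, srp, lab, dve and nub, passed the rule in either interval. Of 6 regulators of sugar- and fat-responsive genes, none passed from 72 to 96 h, while bigmax and cbt were higher and sug, which encodes the sugar-responsive factor Sugarbabe, was lower at 120 h. Of 5 enterocyte markers, Myo61F was lower at 96 h and mex1 at 120 h. Genes of other tissues passed the rule too. At 96 h, 5 of 7 fat body genes and all 5 salivary gland genes were higher and 1 of 5 muscle genes was lower. At 120 h, 4 of 7 fat body genes and 4 of 5 muscle genes were lower, while 1 fat body gene and 3 of 5 salivary gland genes were higher. Their part in the differences of the enzymes was not tested.

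Whole discs were compared with whole larvae at 72, 96 and 120 h in one limma fit with a term for age. Of the 19 enzymes, 18 were lower in discs and none was higher at an adjusted p under 0.05 (Benjamini-Hochberg over 9993 genes), beside 14.2% of all genes lower and 35.9% higher. Only 7 of the 19 reached 1 FPKM in at least 2 whole discs. The 12 others entered the fit through their larval values and so had to differ, and the count is a description. The median difference of the enzymes was −7.01 and that of all genes 0.62.

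Among the enzymes, the widest gaps were those of Jonah proteases, but this did not hold for the whole family. The trypsin epsilonTry, at −8.76, was past Jon25Bi, at −8.45, and Jon74E, at −8.41. Gut genes outside the rule lay in the Jonah range, with mag at −9.46, LysS at −9.24 and Peritrophin-15a at −9.01. Where discs held under 1 FPKM, the difference in log2(FPKM + 1) mostly follows the larval level. Jon25Biii had 0.110, 0.642 and 0.128 FPKM in whole discs at 72, 96 and 120 h, against 4046, 9728 and 2172 FPKM in larvae. Its difference was −11.76. Jon66Ci had 0.0513, 0.403 and 0.765 FPKM in the same discs, a difference of −10.01. For both genes every disc lay far below every larva. No whole disc reached 1 FPKM for either gene, so both entered the fit through the larvae, had to differ, and are given with no test. Jon65Aiv had 70.6, 6.09 and 3.21 FPKM in the discs. With these uneven disc levels its difference of −9.55 carried a larger error (SE 1.30, limma adjusted p = 0.0141). epsilonTry had 7.06, 2.90 and 0.247 FPKM in the discs and differed by −8.76 ± 0.61 (SE, limma adjusted p = 0.000375).

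Among the enzymes, the smallest of the called differences were those of Lip4 and Mal-A5. Both were above 1 FPKM in every whole disc, but so was Jon65Aiv, which differed by −9.55. Lip4 had 1.51, 2.51 and 5.77 FPKM in whole discs at 72, 96 and 120 h, against 6.18, 14.6 and 30.4 FPKM in larvae, and differed by −1.96 ± 0.36 (SE, limma adjusted p = 0.00305). Mal-A5 had 6.20, 6.57 and 2.96 FPKM in discs, against 23.1, 107 and 220 FPKM in larvae, and differed by −3.80 ± 0.91 (SE, limma adjusted p = 0.0374). For both genes, each disc lay below the larva of its age. Without the 96 h pair the adjusted p of Mal-A5 and of Mal-A3 no longer passed 0.05, and with a pseudocount of 5 those of Mal-A3 and kappaTry did not. Mal-B2 had 2.41, 2.13 and 0.813 FPKM in discs and was above the larvae at 72 and 96 h and below at 120 h. Its difference of −0.13 ± 1.49 (SE, limma adjusted p = 0.950) did not pass. Without the 120 h pair the difference of Mal-B2 was 1.71 and it was called higher in discs (limma adjusted p = 0.0270, over its alternatives 0.0270 to 0.950), so no direction is given for it. The 4 genes with other functions were not called: Lipt2 differed by 0.83 ± 0.34 (SE, limma adjusted p = 0.0669) and Liprin-alpha by 0.76 ± 0.33 (SE, limma adjusted p = 0.0767). After median-ratio scaling all 4 stood below 0, so no direction is given for them.

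**Figure D2:**
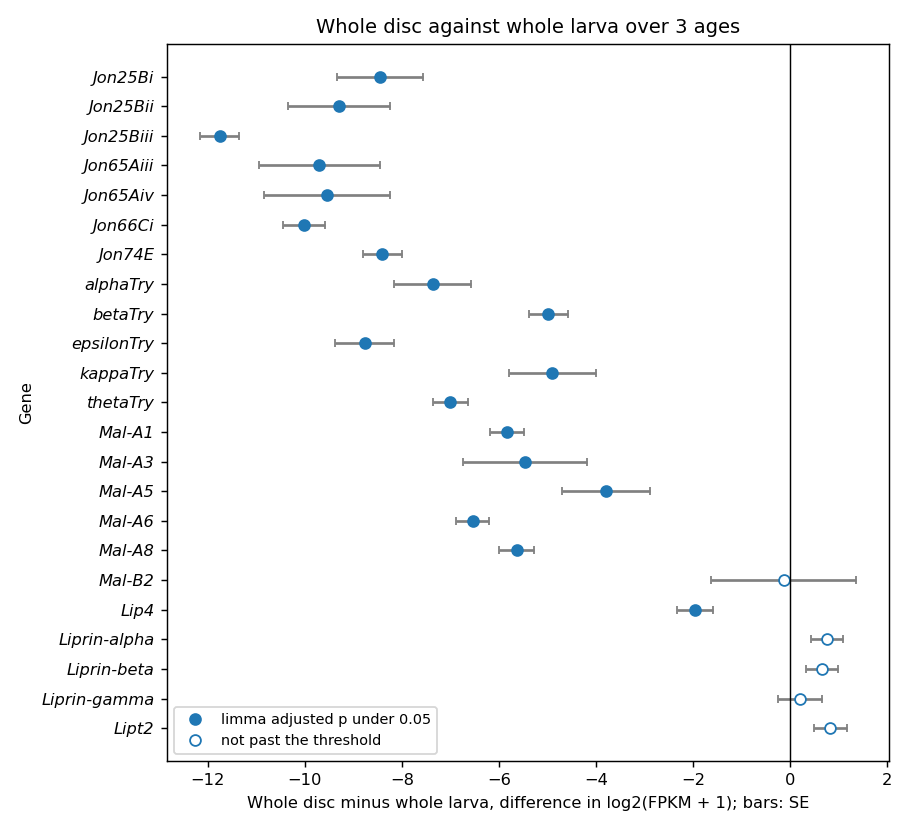
Whole disc minus whole larva in log2(FPKM + 1) for the 23 genes found by the rule, from the fit over 3 ages, with bars for the SE and filled points for a limma adjusted p under 0.05. Enzymes lie left of 0, from −11.76 for Jon25Biii to −1.96 for Lip4 among the filled points, while Mal-B2 and the 4 genes with other functions are open and close to 0. The fit took in 12 of the enzymes through their larval values.

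The same fit called 8 of 11 further digestive enzymes, 5 of 6 lysozymes and gut amidases, all 4 peritrophic matrix genes and 4 of 5 enterocyte markers lower in discs. Here too some genes entered through their larval values, namely 5 of the 11 enzymes (yip7, tobi, mag, Npc2d and Npc2e), 4 of the 6 lysozymes and amidases (LysB, LysE, LysX and PGRP-SC2), 2 peritrophic matrix genes (Muc55B and Muc68Ca) and 2 enterocyte markers (mex1 and Ssk). LysX was not called, and the calls of the others, which had to differ, are no support. Of 4 midgut transcription factors srp was lower. Of 6 regulators of sugar- and fat-responsive genes sug, cbt and daw were lower.

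Enzyme messages were nonetheless present at low level in several discs, and unevenly so. Of 171 values of the 19 enzymes in the 9 disc libraries, 68 were at 1 FPKM or more and 26 were listed at 0. At 72 h, 17 of the 19 reached 1 FPKM in discs with mouthparts and 12 in discs without. At 96 h, 11 did so in eye parts, 10 in antenna parts and 7 in whole discs. At 120 h the numbers were 2, 3 and 3 for the same tissues, and at WPP it was 3. The enzymes summed to 239 and 151 FPKM in discs at 72 h with and without mouthparts, to 288 FPKM in the eye part of 96 h, 94.5 FPKM in its antenna part and 26.3 FPKM in the whole disc of that age, and to between 9.08 and 19.6 FPKM in the 4 later discs.

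The level of each enzyme gene over the 9 disc libraries is given as lowest, median and highest. Jon65Aiv ranged from near 0 at WPP through a median of 6.09 FPKM to 194 FPKM in the eye part at 96 h. It had 102 and 70.6 FPKM in discs at 72 h with and without mouthparts, and 45.0 FPKM in the antenna part at 96 h. Thus 4 libraries, of 72 and 96 h, stood far above the other 5, in which it did not exceed 6.09 FPKM. Jon65Aiii ranged from near 0 through 1.86 to 40.1 FPKM, again with the eye part at 96 h highest. Jon74E ranged from near 0 through 0.232 to 20.3 FPKM and had its highest value in that same library.

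The 3 Jonah genes of arm 2L and Jon66Ci were instead highest in the disc with mouthparts. Jon25Bi ranged from 0 through 1.08 to 29.4 FPKM. Jon25Bii ranged from 0 through 0.261 to 18.0 FPKM. Jon25Biii ranged from 0 through 0.110 to 18.6 FPKM, and Jon66Ci from 0.0513 through 0.206 to 2.23 FPKM. For the last 2 genes the disc with mouthparts was the only one of the 9 that reached 1 FPKM.

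Trypsins stayed low in every disc. epsilonTry ranged from 0 through 0.771 to 7.06 FPKM, highest in the whole disc at 72 h. alphaTry ranged from 0 through 0.418 to 2.85 FPKM, highest in the eye part at 96 h. thetaTry ranged from 0 through 0.203 to 1.39 FPKM, highest in the disc with mouthparts. No disc held kappaTry at 1 FPKM, its range being 0 to 0.790 FPKM with a median of 0. betaTry was near 0 in 6 of the discs, and it reached 1 FPKM only in the whole disc at 72 h, where it had 2.82 FPKM.

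The maltases fell into 2 kinds. Mal-A1 ranged from 0.0181 through 0.577 to 3.60 FPKM, Mal-A6 from 0.0446 through 0.523 to 4.46 FPKM and Mal-A8 from 0 through 0.135 to 2.06 FPKM, all highest in the eye part at 96 h. Mal-A3 ranged from 0 through 0.0134 to 1.73 FPKM, highest in the disc with mouthparts. Mal-A5 was present in every disc, from 2.49 through 6.20 to 18.0 FPKM, and Mal-B2 ranged from 0.462 through 2.01 to 4.33 FPKM. Both of these were highest in the antenna part at 96 h. Lip4 too was above 1 FPKM in all 9 discs, from 1.38 through 2.94 to 8.11 FPKM, with the eye part at 120 h highest.

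**Figure D3:**
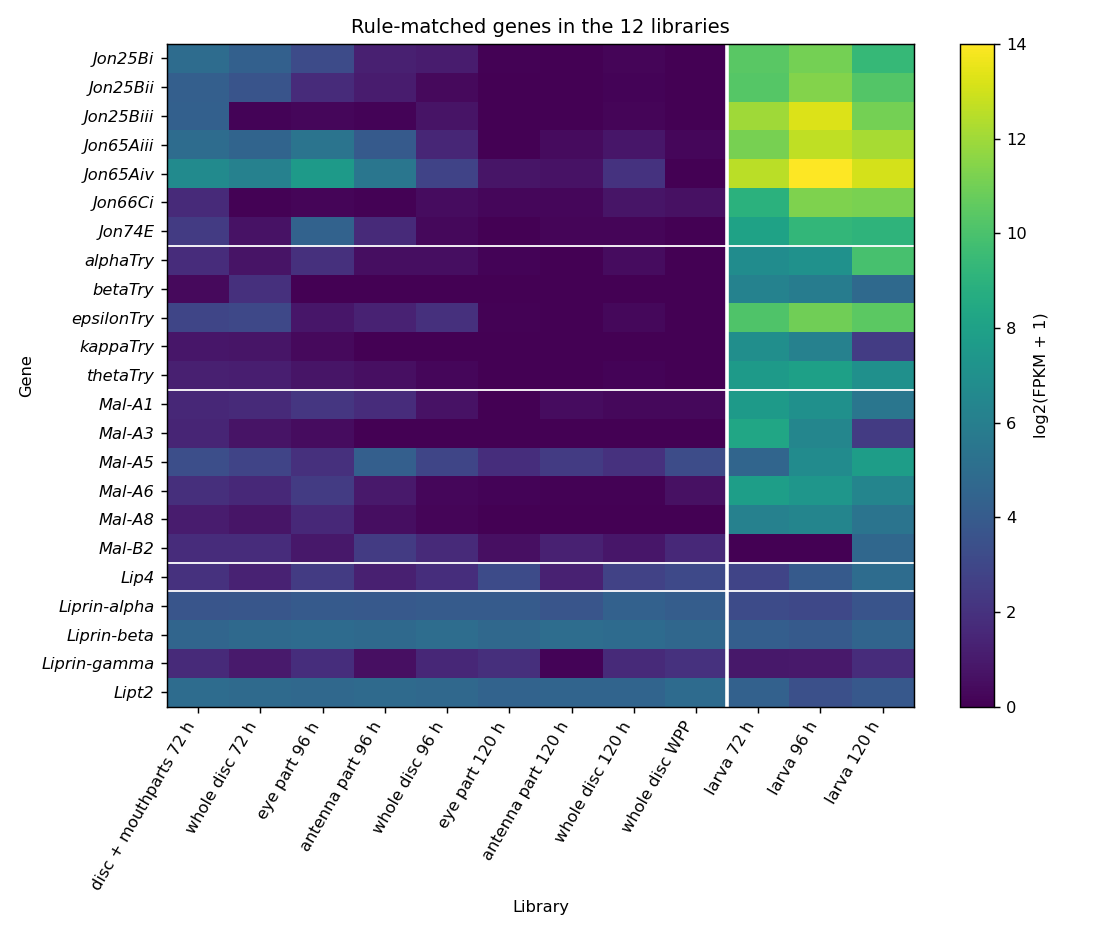
Level of each of the 23 genes found by the rule, as log2(FPKM + 1) in colour, with 1 column per library and the 9 disc libraries left of the white line before the 3 larvae. The Jonah proteases and most trypsins are bright in larvae and dark in discs of 120 h and WPP. Jon65Aiv and Jon65Aiii stand out in most discs of 72 and 96 h, whereas trypsins stay low in every disc. Mal-A5, Lip4, Liprin-alpha, Liprin-beta and Lipt2 stay above 1 FPKM in all 9 discs, whereas Mal-B2 and Liprin-gamma fall below 1 FPKM in some.

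To compare genes of very different abundance, each disc level was expressed as a percentage of the level in the whole larva of the same age, for enzymes with at least 10 FPKM in that larva. The median was 1.15% in the disc with mouthparts and 0.882% in the disc without, over 17 enzymes at 72 h. At 96 h, over 18 enzymes, it was 0.551% in eye parts, 0.220% in antenna parts and 0.0452% in the whole disc. At 120 h, over 17 enzymes, it was 0.00831% in eye parts, 0.00689% in antenna parts and 0.0323% in the whole disc. The libraries of 72 and 96 h thus differed among themselves and stood above those of 120 h, except that the whole disc at 96 h was close to the whole disc at 120 h.

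Within a library the percentages were not uniform. In the disc with mouthparts 16 of 17 enzymes lay between 0.390% and 2.20%, and Mal-A5 stood at 40.8%. In the whole disc at 72 h, Jon65Aiv stood at 1.18%, Jon25Bi at 1.33%, Mal-A1 at 1.11% and thetaTry at 0.645% of the larva, but Jon25Biii at 0.00272% and Jon66Ci at 0.0105%. In the eye part at 96 h, Jon74E stood at 3.35%, Mal-A1 at 2.83%, Mal-A6 at 2.78%, alphaTry at 2.12% and Jon65Aiv at 1.12%. In that library Jon25Biii stood at 0.00181%, Jon66Ci at 0.00608% and epsilonTry at 0.0389%. Enzymes of similar larval abundance therefore differed by orders of magnitude in the same disc.

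The Jonah family showed this most plainly in its composition. Jon65Aiv made up 49.9% of the Jonah sum in the disc with mouthparts, 57.7% in the whole disc at 72 h, 73.1% in eye parts and 69.7% in antenna parts of 96 h, against 38.2% to 42.7% in larvae. Jon25Biii made up 9.08% in the disc with mouthparts but 0.0900% in the whole disc at 72 h, 0.0664% in eye parts and 0.149% in antenna parts, against 10.6% to 25.8% in larvae. Its share was not as small in the later whole discs, though the levels there were low. It had 0.642 FPKM of a Jonah sum of 10.6 FPKM in the whole disc at 96 h, and 0.128 of 5.28 FPKM at 120 h. The ratio of Jon25Biii to Jon65Aiv was 0.000908 to 0.182 over the 6 discs in which Jon65Aiv reached 1 FPKM, and 0.249 to 0.676 in larvae. The ratio of Jon65Aiv to Jon65Aiii was 3.06 to 4.83 over the 5 discs in which Jon65Aiii reached 1 FPKM, and 1.86 to 2.71 in larvae. Above these floors the ranges of discs and larvae do not overlap for either ratio, but these pairs were picked. The share over all gene pairs was not computed, and other pairs went both ways. Ranges overlapped for Jon65Aiii to yip7 (1.26 to 3.43 in discs, 1.80 to 3.14 in larvae), Mal-A5 to Mal-A6 and alphaTry to epsilonTry. They did not for Jon25Biii to Jon25Bii or Jon25Bi to Jon25Bii. Below the floor, Jon65Aiv to Jon65Aiii was 1.74 in antenna parts of 120 h, under the larval range, and 4.03 in the whole disc of 120 h. The difference was not tested, and the ratios are uncertain where related copies share reads.

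Other gut genes also differed between disc libraries, and not all in the same way. In the eye part at 96 h, LysS stood at 3.30% of the larva, LysC at 4.20%, mag at 2.64%, Npc2d at 2.55% and yip7 at 1.22%. LysE stood at 38.3%, but PGRP-SC2 at 0.0750% and Peritrophin-15a at 0.109%. The 5 enterocyte markers ranged widely there, with the gut junction gene Ssk at 0.385%, mex1 at 0.598%, Tsp2A at 4.31%, Myo61F at 25.1% and Myo31DF at 87.3%. The summed FPKM of the 5 enterocyte markers was between 25.2 and 51.5 in the 9 discs and between 285 and 434 in larvae. In the eye part at 96 h most of the sum of 36.7 FPKM came from Myo31DF (22.8 FPKM) and Myo61F (9.83 FPKM). mex1 was listed at 0 in the whole disc at 96 h and at WPP, and Ssk at 0 at WPP. Genes of other larval tissues were also present in the discs of 96 h. The 7 fat body genes summed to 457 FPKM in eye parts, 337 FPKM in antenna parts and 165 FPKM in the whole disc. The 5 salivary gland genes summed to 259 FPKM in eye parts, 234 FPKM in antenna parts and 189 FPKM in the whole disc. The 5 muscle genes summed to 440 FPKM in eye parts, 4018 FPKM in antenna parts and 1604 FPKM in the whole disc. The part of other tissue in the disc levels of the enzymes was not tested.

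**Figure D4:**
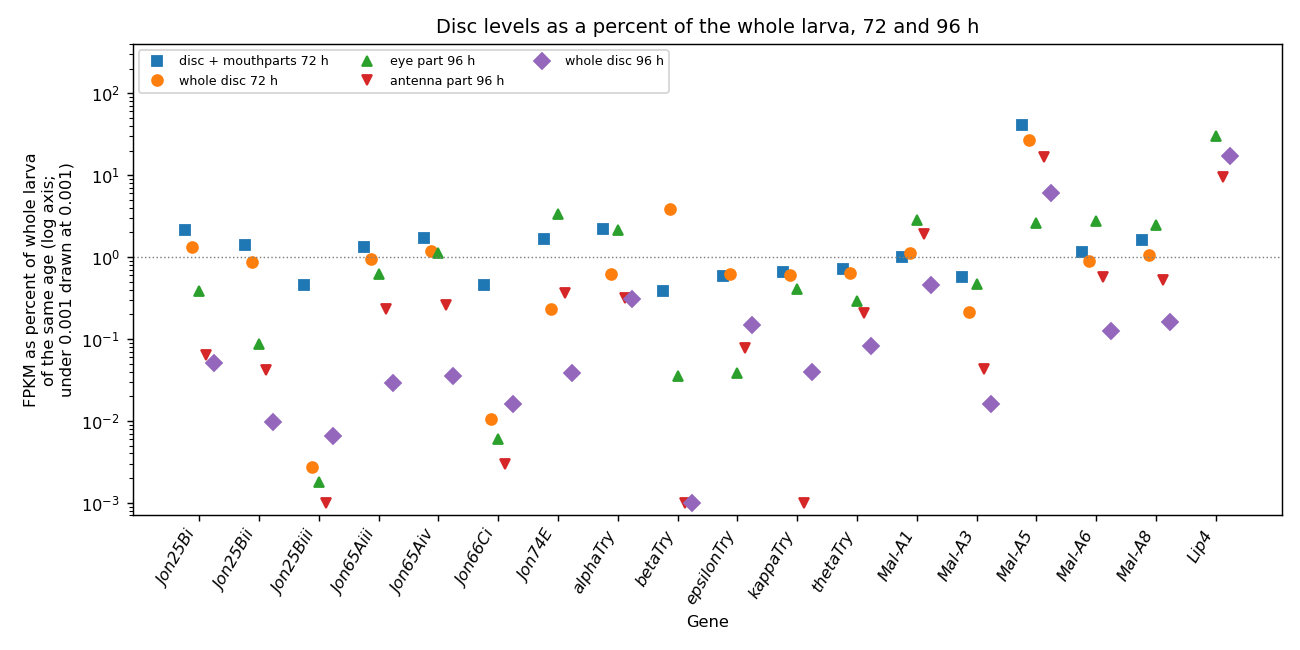
FPKM in 5 disc libraries of 72 and 96 h as a percentage of the whole larva of the same age, on a log axis, for the 18 enzymes with at least 10 FPKM in that larva, with the dotted line at 1%. Most points of the disc with mouthparts lie near 1%, whereas Jon25Biii and Jon66Ci lie between 0.000987% and 0.0162% in the other 4 libraries, and Mal-A5 stands at 40.8% in the disc with mouthparts.

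Discs with mouthparts were set against discs without at 72 h to see what the attached mouthparts add. Of the 19 enzymes, 1 was higher and none lower by the rule of size, beside 8.98% higher and 1.63% lower of 8026 genes. Only 7 enzymes reached the floor of 5 FPKM. The gene was Jon25Biii, with 18.6 FPKM in the disc with mouthparts and 0.110 FPKM in the disc without, a difference of 4.14. Jon66Ci, with 2.23 and 0.0513 FPKM, and Jon74E, with 4.44 and 0.623 FPKM, differed by 1.62 and 1.75 but stayed under the floor. Jon65Aiv, with 102 and 70.6 FPKM, differed by 0.53. Peritrophic matrix genes moved with Jon25Biii: Peritrophin-15a had 131 FPKM with mouthparts and 17.6 FPKM without, and Peritrophin-15b and Muc55B were also past the rule, 3 of the 4 peritrophic matrix genes. None of the 11 further digestive enzymes, 8 lysozymes and gut amidases or 5 enterocyte markers passed it. Of other tissues, 2 of 7 fat body genes (Lsp1alpha and Lsp2) and 2 of 5 muscle genes (Mlc2 and TpnC73F) were higher with mouthparts. The part of these genes in the Jon25Biii difference was not tested.

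In the whole disc, 5 enzymes were lower at 96 h than at 72 h and none was higher, beside 11.1% lower and 5.02% higher of 7842 genes. Jon65Aiv had 6.09 FPKM at 96 h and 70.6 FPKM at 72 h, a difference of −3.34. Jon25Bii differed by −3.29, Jon25Bi by −3.21, Jon65Aiii by −2.97 and epsilonTry by −1.05. Of the 5, all but Jon25Bi and epsilonTry were called higher in larvae over the same interval, beside 9.8% of 7415 genes. Of the 5 muscle genes, Mlc1, Mlc2, up and Act57B were lower in the same comparison. Of the 7 fat body genes, Lsp1beta, Lsp1gamma and apolpp were lower and Lsp2 and Fbp2 higher, and of the 5 salivary gland genes Sgs7 and Sgs8 were higher. The gut genes yip7, LysS and Peritrophin-15a were lower as well. The part of these genes in the differences of the enzymes was not tested.

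The 3 disc libraries of 96 h did not add up to one another. Jon65Aiv had 194 FPKM in eye parts and 45.0 FPKM in antenna parts, and 6.09 FPKM in the whole disc, which contains both. Of the 13 enzymes with at least 1 FPKM in 1 of these 3 libraries, 9 were lower in the whole disc than in both parts, beside 26.4% of 9204 genes. They were Jon25Bi, Jon25Bii, Jon65Aiii, Jon65Aiv, Jon74E, Mal-A1, Mal-A6, Mal-A8 and alphaTry. Other gut genes were mixed. By the same 1 FPKM floor, the whole disc lay below both parts for 6 of 9 further digestive enzymes and all 5 lysozymes and gut amidases. It did so for 1 of 3 peritrophic matrix genes and 0 of 3 enterocyte markers. LysS had 169 FPKM in eye parts, 31.6 FPKM in antenna parts and 3.26 FPKM in the whole disc. The whole disc also lay below both parts for all 7 fat body genes, all 5 salivary gland genes and all 4 hemocyte genes, and for 0 of 5 muscle genes.

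Discs of 120 h were set against discs of 96 h over both parts and whole discs, and eye parts against antenna parts in the same limma fit. Of the 19 enzymes 10 could be tested and 9 were too low. Between 120 and 96 h, no member was called, beside 0.947% of 9081 genes higher and 1.17% lower. At an unadjusted p under 0.05, 5 members passed, namely epsilonTry, Jon25Bi, Mal-A1, Mal-B2 and Mal-A5, beside 18.2% of all genes. Of the 10 tested, 6 were under 1 FPKM in all 3 discs of 120 h and entered the fit through the 96 h discs, so their p-values are no support. They were Jon25Bi, Jon25Bii, Jon65Aiii, Jon74E, Mal-A1 and epsilonTry. Jon65Aiv at 120 h had 0.725 FPKM in eye parts, 0.601 FPKM in antenna parts and 3.21 FPKM in whole discs, against 194, 45.0 and 6.09 FPKM for the same tissues at 96 h. Its difference of −4.14 ± 1.58 (SE, limma adjusted p = 0.362) did not pass. epsilonTry differed by −1.24 ± 0.31 (SE, limma adjusted p = 0.129), with 0.0587, 0 and 0.247 FPKM at 120 h and 0.771, 1.54 and 2.90 FPKM at 96 h. Without the whole disc pair Jon65Aiii was called, its difference over all 3 tissues being −3.19 ± 1.09 (SE, limma adjusted p = 0.294). In the same fit 4 of 7 fat body genes and 3 of 5 muscle genes were lower at 120 h, and no gene of the digestive lists passed.

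Between eye and antenna part no member was called, beside 1.75% of 9081 genes higher in eye parts and 1.39% lower. At an unadjusted p under 0.05, 4 members passed, beside 14.8% of all genes. In eye parts of 96 and 120 h, Lip4 had 4.34 and 8.11 FPKM, against 1.38 and 1.47 FPKM in antenna parts, a difference of 1.53 ± 0.32 (SE, limma adjusted p = 0.0924). Liprin-gamma differed by 1.50 ± 0.31 (SE, limma adjusted p = 0.0910). Mal-A5 had 2.77 and 2.49 FPKM in eye parts, against 18.0 and 4.41 FPKM in antenna parts, and Mal-B2 had 0.893 and 0.462 FPKM against 4.33 and 1.45 FPKM. Their differences were −1.48 ± 0.44 (SE, limma adjusted p = 0.205) and −1.12 ± 0.33 (SE, limma adjusted p = 0.198). None of these 3 enzymes, which are named for their unadjusted p, passed the adjusted threshold. Muscle genes moved with this contrast too, 4 of 5 being lower in the eye part.

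In whole discs at WPP against 120 h, Mal-A5 alone was higher and no enzyme was lower, beside 5.04% higher and 9.34% lower of 7559 genes, with 2 enzymes able to reach the floor. Mal-A5 had 8.63 FPKM at WPP and 2.96 FPKM at 120 h, a difference of 1.28. Lip4, the other enzyme above the floor, had 7.50 FPKM at WPP and 5.77 FPKM at 120 h. Mal-B2 had 2.01 FPKM at WPP and 0.813 FPKM at 120 h. Of the 7 Jonah proteases, none reached 1 FPKM at WPP.

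The authors' deposited table places each gene in 1 of 11 clusters by an unstated method. Jon25Bi, Jon25Bii, Mal-A3, betaTry, epsilonTry and kappaTry stand in cluster 6, with 14.7% of all genes. Jon65Aiii, Jon65Aiv, Mal-A1, Mal-A6 and thetaTry stand in cluster 7, with 16.1%, and Jon25Biii, Jon74E, Mal-A8 and alphaTry in cluster 9, with 6.47%. Mal-A5, at 1 FPKM or more in all 9 discs, and Mal-B2, so in 6 of the 9, share cluster 5, with 5.66% of all genes. Lip4 is in cluster 2, with 9.45%, and Jon66Ci in cluster 4, with 7.89%. Some neighbours in the genome were thus split between clusters, as with Jon25Bii and Jon25Biii, and Mal-A5 and Mal-A6. Others shared a cluster, as with Jon65Aiv and Jon65Aiii, Jon25Bi and Jon25Bii, and epsilonTry and betaTry.

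The 4 genes with other functions were measured in every library. Liprin-beta ranged from 22.9 to 30.7 FPKM over the 9 discs and from 14.8 to 21.9 FPKM in larvae. Liprin-alpha ranged from 11.8 to 19.6 FPKM in discs and from 7.05 to 11.3 FPKM in larvae. Lipt2 ranged from 21.2 to 29.9 FPKM in discs and from 9.50 to 19.3 FPKM in larvae. The discs lay above the larvae for all 3 of these genes, in values as deposited. In those values the median difference of whole disc against whole larva over all genes was 0.62. After median-ratio scaling the 3 genes stood below 0, so no direction is given for them. Liprin-gamma was lower, at 0.117 to 2.97 FPKM in discs and 0.840 to 2.38 FPKM in larvae.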

How the data were processed

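The deposited table gives 1 value per gene and library. Reads were processed with TopHat and Cufflinks on the build dm3, per the submitters' processing notes, which give no versions. The unit stands in no header, and the deposited values were taken as FPKM because Cufflinks reports it and because they are not whole. A cluster number, made by the authors, stands beside each gene of the deposited table. Numbers of reads are unknown and no whole-read steps were found, so no counting interval is given. A 0 is listed at 0, not a measured absence. The annotation, the strand setting and the filter on genes are not stated. Symbols, neighbours and transcript lengths came from the annotation BDGP6.54, which gave a symbol for 10308 genes, and no coordinates are given since its build differs from that of the files.

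Values were analysed as log2(FPKM + 1), which understates the change of low genes. Comparisons of 1 library with 1 used the rule of size and carry no p. Disc against larva (with age) and the 96 and 120 h discs (with tissue and age) were fitted with limma (lmFit, eBayes with trend and robust) on 6 libraries, with 2 residual degrees of freedom, over genes with at least 1 FPKM in 2 libraries. P-values are two-sided and adjusted by Benjamini-Hochberg over all genes tested. The fits were tested on simulated data. R 4.3.3, limma 3.58.1, Python 3.11.15, pandas 2.3.3, numpy 2.4.6 and matplotlib 3.10.9 were used.

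Members, lists, tests and alternatives were chosen with earlier results of these data known. Every member was to be accounted for, with members of at least 100 FPKM in a larva given in each larva and as lowest, median and highest disc value, and genes of the other lists named where past the rule or the test. Alternatives were other pseudocounts, scalings, floors and thresholds, no filter, plain eBayes and leaving out pairs of libraries.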

Additional observations from a re-analysis of the deposited data

Results flagged for a closer look

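In 3 Jonah proteases, larvae and whole discs differed in opposite directions between 96 h and 72 h, with 1 library per tissue and age. For whole discs the differences in log2(FPKM + 1) of 96 h against 72 h were −3.29 for Jon25Bii, −2.97 for Jon65Aiii and −3.34 for Jon65Aiv. For whole larvae they were 1.06 for Jon25Bii, 1.51 for Jon65Aiii and 1.53 for Jon65Aiv. The share of all genes with such opposite differences was not computed, so the count is a description. Whether the tissues differ in this was not tested.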

How the results depend on the processing

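Each comparison was repeated under the alternatives, which covered 107 results, 10 of them counts of members (the 19 enzymes and the 4 other genes). Of the values of counts under an alternative, 47 stayed within 1.5 times the count reported and 17 did not. The cause of these shifts was not tested. From 72 to 96 h in larvae, 8 members were higher as reported, 2 after rescaling without short transcripts and 2 at a difference of at least 2, and 1 was lower as reported, 2 with a pseudocount of 0.1, 5 after the rescaling and 0 at a difference of at least 2. From 96 to 120 h, 4 were higher as reported, 2 after median-ratio scaling and 2 at a difference of at least 2, and 8 were lower as reported, 13 after median-ratio scaling, 4 after the rescaling and 3 at a difference of at least 2. With against without mouthparts, 1 member passed as reported, 2 after the rescaling and 5 with no floor. In whole discs at 96 against 72 h, 5 passed as reported and 8 with no floor. At WPP against 120 h, 1 passed as reported, 2 with no floor, and 0 with a pseudocount of 5 or at a difference of at least 2. From 96 to 120 h the summed trypsins had a log2 ratio of 0.05 as deposited and −0.54 after median-ratio scaling, and the summed maltases one of −0.44 as deposited and 0.11 after the rescaling. In the leave-one-out fits, 16 to 19 members were called in disc against larva (18 as reported, the 19th being Mal-B2, higher in discs without the 120 h pair; its difference was −0.13 as reported and −1.08 to 1.71 over these fits) and 0 to 1 in discs at 120 against 96 h (0 as reported). The labels carry no replicate numbers, so the fits matched libraries by age or tissue and had no other block. Single libraries and an unknown depth limit every larval difference.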
